A study of Mus musculus with 10 samples.

Results

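The Dlx genes encode 6 homeodomain transcription factors that lie in the mouse genome as 3 convergent pairs, Dlx1 with Dlx2, Dlx3 with Dlx4 and Dlx5 with Dlx6. The 6 genes were chosen by name and located in the GENCODE annotation of mm9, where 22350 protein-coding genes lie on the 20 chromosomes with peaks in these data. ChIP-seq libraries were made from J1 ESCs, a mouse ESC line grown on fibroblast feeders with serum and LIF, and from NSCs derived from J1 ESCs in culture and grown with EGF and FGF. No genotype or treatment sets the groups apart. ESCs were profiled for Ring1b, Cbx2, Ezh2 and H3K27me3 and NSCs for Ring1b and H3K27me3, with 1 library and 1 deposited list of peaks each, so that no difference between lists has a replicate check and none was tested. Feeder cells were depleted from ESCs before cross-linking, and both cell types were fixed in 1% formaldehyde. Ring1b had its own inputs, and the study's methods give it alone an added EGS cross-link. What this does to comparisons of Ring1b with the other targets was not tested. How many independent NSC derivations were pooled is not given in the sources used here.

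Polycomb-Group (PcG) proteins hold developmental genes silent in cells that do not use them. Ring1b is the catalytic subunit of PRC1 and Cbx2 is a chromobox subunit of PRC1 that can bind H3K27me3, the mark that Ezh2 places as the methyltransferase of PRC2. Dlx1, Dlx2, Dlx5 and Dlx6 act in GABAergic neurons of the ventral forebrain and in the jaw arches, Dlx5 and Dlx6 also in limb and bone, and Dlx3 in placenta, skin, hair and teeth. Convergent genes share the DNA between their 3′ ends, and for Dlx1 with Dlx2 and Dlx5 with Dlx6 this DNA is known to hold enhancers that drive both genes.

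Each list gives the start and end of its peaks on a grid of 200 bp without any measure of height or confidence. A value below is therefore a position, a covered length or a start site that lies inside a peak. The lists held from 1033 peaks (ESC Cbx2) to 2335 peaks (ESC Ring1b), the smallest peak was 1000 bp wide, and the depth behind them is unknown. As a look at the cell labels, 0 of 7 pluripotency genes (Pou5f1, Nanog, Zfp42, Esrrb, Tdgf1, Lin28a and Sall4) had a start site in an ESC peak, and Lin28a had one in an NSC H3K27me3 peak. Of 7 neural stem cell genes, 5 had a start site in an ESC Ring1b peak (Nes, Pax6, Olig1, Olig2 and Sox9, not Fabp7 or Vim) and 0 in a peak of either NSC list. From 1.15% to 7.03% of all protein-coding start sites were in a peak of a given list. A count of 0 among 7 genes thus does not set such genes apart from others. Peaks also do not measure expression, so these counts do not show which of the genes the cells used.

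Ring1b and Ezh2 peaks of ESCs held the start sites of all 6 Dlx genes. Across all protein-coding genes the share of start sites inside a peak was 7.03% for ESC Ring1b and 2.56% for ESC Ezh2. H3K27me3 peaks of ESCs held 5 of the 6 (4.31% of all start sites), the exception being Dlx2, whose start site lay 11 bp outside a peak. Cbx2 peaks held 4 of the 6 (1.15% of all), those of Dlx1, Dlx2, Dlx5 and Dlx6. In NSCs, Ring1b peaks held 3 (1.74% of all), those of Dlx1, Dlx2 and Dlx6, and H3K27me3 peaks held 4 (1.77% of all), those of Dlx1, Dlx3, Dlx5 and Dlx6. Dlx1, Dlx5 and Dlx6 had their start sites under all 4 ESC lists, as did 0.752% of all start sites, and Dlx1 and Dlx6 under all 6 lists, as did 0.309%. Dlx4 had no NSC peak at its start site.

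**Figure D1:**
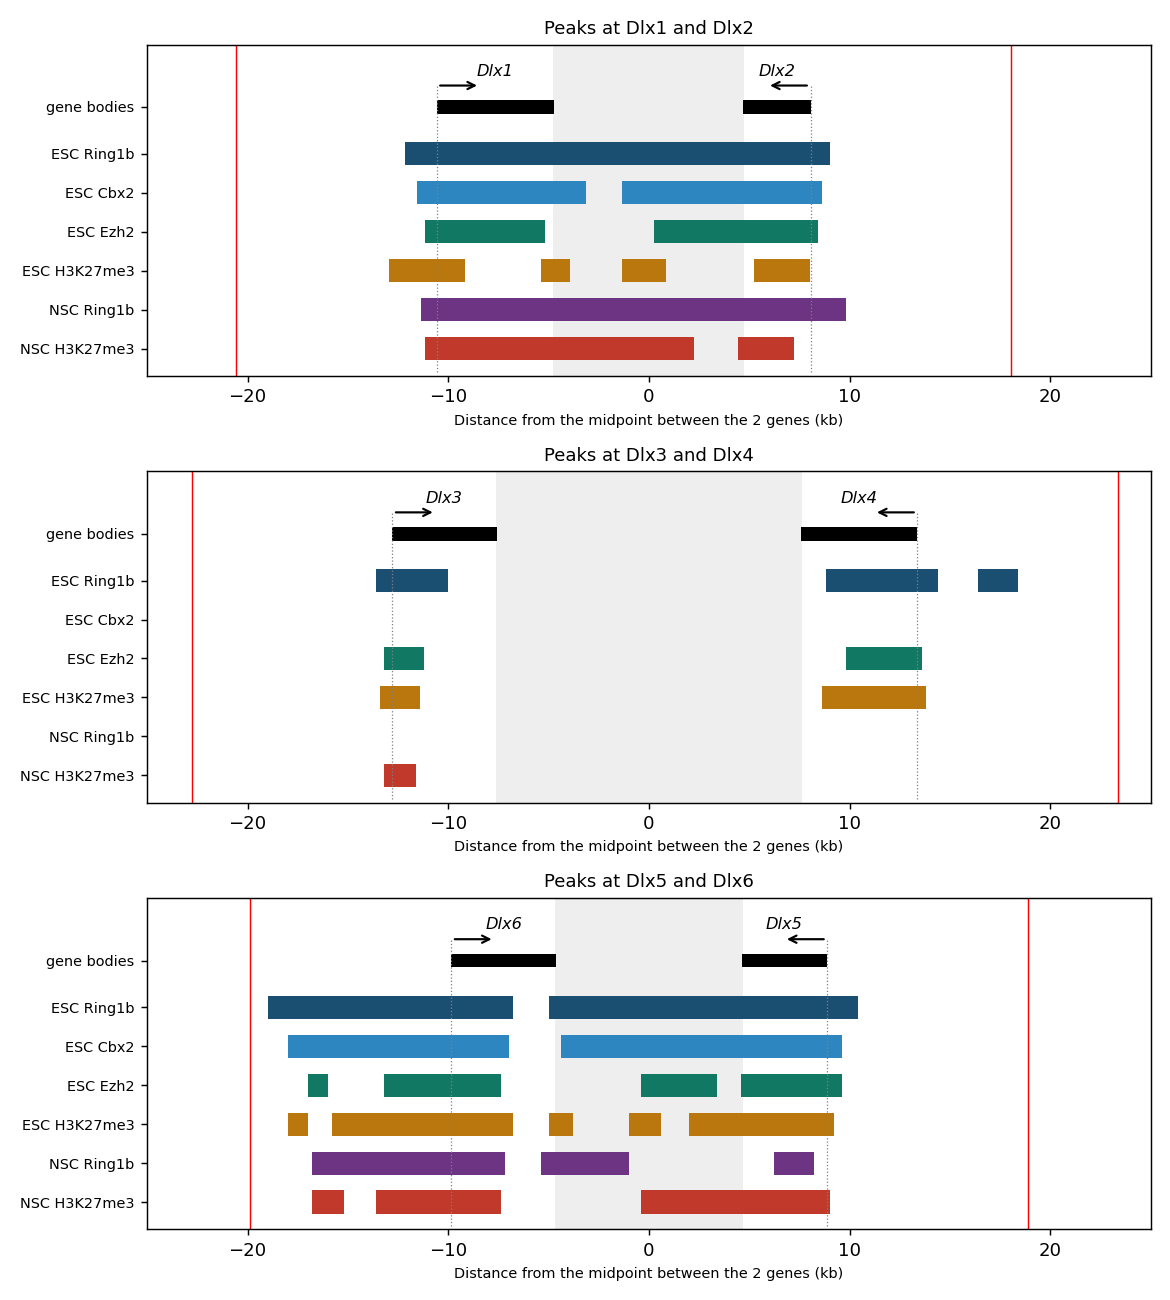
Peaks of the 6 lists at the 3 Dlx pairs, plotted by distance in kb from the midpoint between the genes. Black bars are gene bodies, arrows and dotted lines mark start sites and their direction, grey shading is the DNA between the genes and red lines are the ends of the window of 10 kb on either side. A single Ring1b peak of 21200 bp spans Dlx1 and Dlx2 in each cell type, while the DNA between Dlx3 and Dlx4 holds no peak.

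Dlx1 (ENSMUSG00000041911.3) is a forward-strand gene of chromosome 2, spans 71366170 to 71372038 and has 2 exon blocks, and Dlx2 (ENSMUSG00000023391.7), on the reverse strand, spans 71381466 to 71384811 and has 3. Their start sites are 18641 bp apart. The 250 bases before each start site are printed here in the direction of transcription, with every CG dinucleotide in capitals, since CpG-rich DNA is a known feature of mammalian PcG targets. The Dlx1 stretch (mm9 chr2:71365920-71366169, forward strand) also overlaps an exon of the noncoding RNA Dlx1as, and the Dlx2 stretch (mm9 chr2:71384812-71385061, reverse strand) overlaps no annotated exon.
Dlx1: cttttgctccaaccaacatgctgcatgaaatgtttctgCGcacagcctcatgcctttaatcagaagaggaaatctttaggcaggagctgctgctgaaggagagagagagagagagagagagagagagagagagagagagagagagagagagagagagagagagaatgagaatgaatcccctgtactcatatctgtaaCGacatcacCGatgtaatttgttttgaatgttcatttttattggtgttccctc
Dlx2: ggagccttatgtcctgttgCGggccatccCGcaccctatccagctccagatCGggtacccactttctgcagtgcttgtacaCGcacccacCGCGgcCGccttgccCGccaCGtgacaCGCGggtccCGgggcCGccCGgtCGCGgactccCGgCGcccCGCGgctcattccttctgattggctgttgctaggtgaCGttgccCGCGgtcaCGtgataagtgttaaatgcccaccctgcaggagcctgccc
The Dlx1 stretch held 3 CpGs and the Dlx2 stretch 24, which is the fewest (shared with Dlx6) and the most among the 6 genes, although an ESC and an NSC Ring1b peak covered both. Over 22345 promoters of this length the median was 8 CpGs, and 75.4% held at least 3 and 13.5% at least 24.

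In ESCs a single Ring1b peak of 21200 bp, from 71364601 to 71385800, held both genes whole and all 9427 bp between them. It ranked 15 by width among 2335 peaks. Cbx2 had 2 peaks, of 8400 bp over Dlx1 and 10000 bp over Dlx2, which covered 80.9% of the DNA between the genes and left a break in it. Ezh2 also had a peak for each gene, of 6000 bp and 8200 bp. H3K27me3 was in 4 shorter peaks of 1400 bp to 3800 bp that covered 35.3% of the Dlx1 body, 83.7% of the Dlx2 body and 31.4% of the DNA between. The Cbx2 and Ezh2 peaks lay entirely inside the Ring1b peak, and 92.2% of the H3K27me3 bases did. Of the Ezh2 bases at this pair, 39.4% were also under H3K27me3, compared with 82.1% at Dlx5 and Dlx6 and 96.6% at Dlx3 and Dlx4.

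NSCs had a Ring1b peak of the same width, 21200 bp, from 71365401 to 71386600. It was shifted by 800 bp at each end, so that 20400 bp were shared and 800 bp were found in each cell type alone. It ranked 7 by width among 1389 NSC Ring1b peaks. H3K27me3 at this pair was in 4 peaks over 10200 bp in ESCs and in 2 peaks over 16200 bp in NSCs. The wider NSC peak, of 13400 bp from 71365601 to 71379000, ran through the whole of Dlx1 and ranked 12 among 1647 NSC H3K27me3 peaks. Between the genes H3K27me3 covered 2962 bp in ESCs and 7227 bp in NSCs, and all 2962 bp were among the latter. At Dlx2 the coverage was lower in NSCs, at 75.8% of the gene body, and the start site lay 811 bp outside the NSC peak.

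Dlx5 (ENSMUSG00000029755.9) lies on the reverse strand of chromosome 6 from 6827805 to 6832085 and Dlx6 (ENSMUSG00000029754.7) on the forward strand from 6813334 to 6818568, each with 3 exon blocks. The start sites are 18751 bp apart and 9236 bp separate the genes. This pair had the highest coverage of the 3 pairs in each ESC list. Ring1b covered 71.2% of the pair window, which is both gene bodies, the DNA between and 10 kb on either side, compared with 54.9% at Dlx1 and Dlx2 and 24.3% at Dlx3 and Dlx4. Cbx2 covered 64.5%, H3K27me3 51.6% and Ezh2 40.3%. Under all 4 ESC lists at once lay 12800 bp, compared with 5600 bp at Dlx1 and Dlx2 and 0 bp at Dlx3 and Dlx4.

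The ESC Ring1b signal was called as a peak of 12200 bp over the start of Dlx6 and a peak of 15400 bp from the end of Dlx6 through Dlx5. A stretch of 1400 bp in the 3′ part of Dlx6, from 6816401 to 6817800, was under no peak of any of the 6 lists. Peaks at Dlx6 reached far upstream of its start site, by 9133 bp for Ring1b, 8133 bp for Cbx2, 5933 bp for H3K27me3 and 3333 bp for Ezh2. At the other 5 genes the peak over the start site reached from 802 bp to 1569 bp upstream in the ESC Ring1b list. The DNA upstream of Dlx6 lies inside the noncoding gene Dlx6os1 (6770189 to 6819533, reverse strand), whose own start site was in a peak of ESC Ring1b, ESC Cbx2 and NSC Ring1b. Cbx2 peaks were also wide here, and that of 14000 bp over Dlx5 ranked 12 among 1033.

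In NSCs Ring1b covered 16000 bp of this pair window in 3 peaks, compared with 27600 bp in 2 peaks in ESCs, and 15600 bp were shared. H3K27me3 covered 17200 bp, compared with 20000 bp in ESCs, with 14800 bp shared. The peak over the start of Dlx6 was 12200 bp in ESCs and 9600 bp in NSCs for Ring1b, and 9000 bp and 6200 bp for H3K27me3. At Dlx5 an NSC Ring1b peak of 2000 bp lay inside the gene, over 46.7% of its body, and ended 685 bp short of the start site. H3K27me3 in contrast covered the whole body of Dlx5 in both cell types. Between the genes, NSC Ring1b covered 3632 bp next to Dlx6 and NSC H3K27me3 covered 5004 bp next to Dlx5, with 0 bp in common. Ring1b in ESCs covered all 9236 bp of the same DNA and H3K27me3 covered 5036 bp of it.

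**Figure D2:**
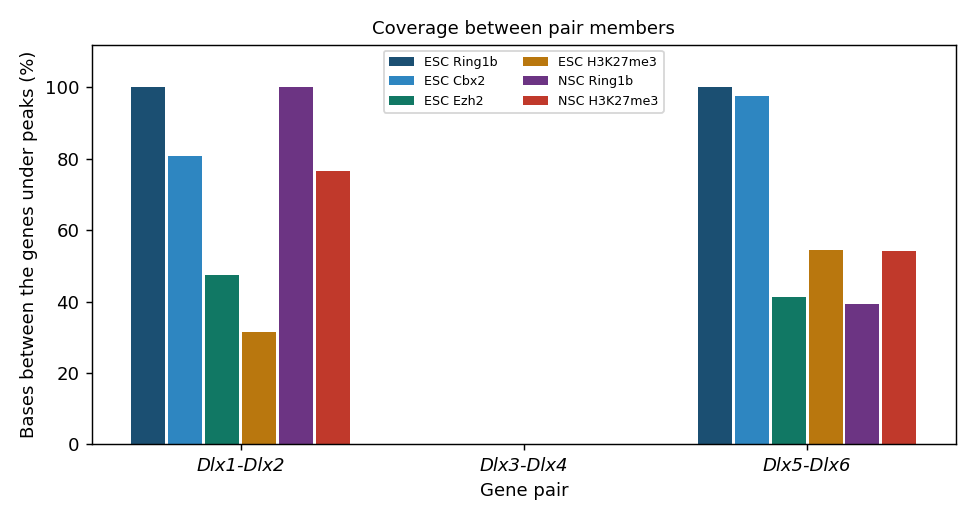
Percent of the bases between the genes of each pair under peaks of each list, with 1 library per bar and no error. Ring1b covers 100% at Dlx1 and Dlx2 in both cell types and falls from 100% to 39.3% at Dlx5 and Dlx6, and no bars stand at Dlx3 and Dlx4, where each list covers 0%.

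Dlx3 (ENSMUSG00000001510.7) is a forward-strand gene of chromosome 11, spans 94981403 to 94986610 and has 3 exon blocks, and Dlx4 (ENSMUSG00000020871.7), on the reverse strand, spans 95001770 to 95007577 and has 4. The genes are 15159 bp apart. The bases before their start sites are shown because these genes form the pair least covered by peaks. They lie at mm9 chr11:94981153-94981402 (forward strand) and chr11:95007578-95007827 (reverse strand) and overlap no annotated exon. Capitals again mark CG.
Dlx3: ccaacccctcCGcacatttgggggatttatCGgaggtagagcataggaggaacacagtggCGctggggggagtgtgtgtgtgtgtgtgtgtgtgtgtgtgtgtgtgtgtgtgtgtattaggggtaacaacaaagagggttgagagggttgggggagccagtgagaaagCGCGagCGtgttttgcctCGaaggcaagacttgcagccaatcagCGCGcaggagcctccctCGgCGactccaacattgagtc
Dlx4: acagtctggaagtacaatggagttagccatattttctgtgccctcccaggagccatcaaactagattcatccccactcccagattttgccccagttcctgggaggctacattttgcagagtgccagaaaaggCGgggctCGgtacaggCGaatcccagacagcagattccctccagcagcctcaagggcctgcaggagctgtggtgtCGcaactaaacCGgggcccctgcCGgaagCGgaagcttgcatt
They held 11 and 7 CpGs, between the counts of Dlx1 and Dlx2.

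Peaks at this pair were separate and, apart from a Ring1b peak beyond Dlx4, lay over the start sites. ESC Ring1b had a peak of 3600 bp over the start of Dlx3, a peak of 5600 bp over the start of Dlx4 and another of 2000 bp, from 95010601 to 95012600, beyond Dlx4. This last peak lies in an intron of the noncoding gene A730090H04Rik and met no peak of another list. Ezh2 peaks of 2000 bp and 3800 bp and H3K27me3 peaks of 2000 bp and 5200 bp lay over the same start sites. The 18600 bp from the Dlx3 peaks to the Dlx4 peaks, which include all of the DNA between the genes, held no peak of any list. Cbx2 had no peak in the window, and the nearest Cbx2 peak to the Dlx4 start site was 1028424 bp away. A peak missing from a list says only that no window passed the authors' threshold.
In NSCs the window held 1 peak, an H3K27me3 peak of 1600 bp from 94981001 to 94982600 over the start of Dlx3. It lay entirely inside the ESC H3K27me3 peak there. Ring1b covered 11200 bp of the window in ESCs and 0 bp in NSCs, and H3K27me3 covered 7200 bp and 1600 bp. At Dlx4, peaks of 3 ESC lists had no counterpart in either NSC list. The nearest NSC Ring1b peak lay 266624 bp from its start site and the nearest NSC H3K27me3 peak 24977 bp away, at Dlx3.

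Dlx3 and Dlx4 had the lowest coverage of the 6 genes in each list, while the order of the other 4 was not the same in every list. For ESC Ring1b, peaks covered 89.4% of the Dlx6 gene body plus 10 kb on either side, 67.4% at Dlx1, 63.4% at Dlx5, 61.4% at Dlx2, 29.4% at Dlx4 and 14.3% at Dlx3. For NSC Ring1b the order was Dlx2 (64.8%), Dlx1 (64.3%), Dlx6 (55.5%), Dlx5 (26.3%), then Dlx3 and Dlx4 at 0%. For NSC H3K27me3 it was Dlx1 (55.0%), Dlx6 (53.8%), Dlx2 (44.3%), Dlx5 (38.7%), Dlx3 (6.35%) and Dlx4 (0%). With 1 library a list, whether neighbours in these orders differ beyond replicate spread cannot be told, and the windows of a pair overlap, so its members share bases. Over all protein-coding genes the median coverage of such a window was 0% in each list, since from 3.09% (ESC Cbx2) to 11.5% (ESC Ring1b) of genes had a peak in it at all.

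**Figure D3:**
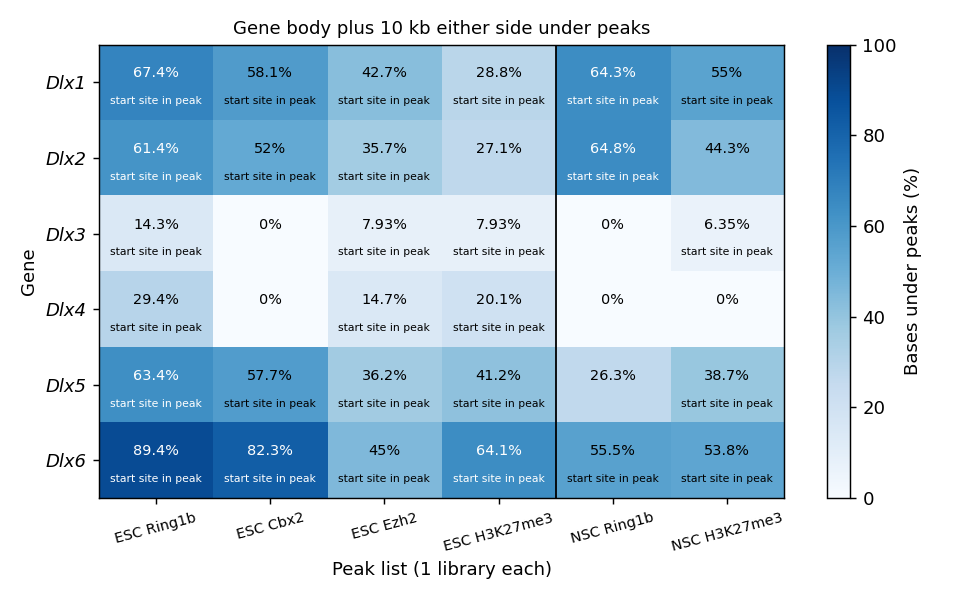
Percent of each gene body plus 10 kb on either side under peaks, for 6 Dlx genes (rows) and 6 peak lists of 1 library each (columns, with ESCs left of the line), on a scale from 0% to 100%. The words in a cell mark a start site inside a peak. Dlx3 and Dlx4 have the lowest values of the 6 genes in each list, from 0% to 29.4%.

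For the Ring1b start sites, 3 of the 6 Dlx genes that had an ESC peak also had an NSC peak, where 16.7% of the 1571 protein-coding start sites in ESC Ring1b peaks did. For H3K27me3 the number was 4 of 5, where 25.4% of 964 did. No Dlx start site was in an NSC peak without being in an ESC peak of the same target. With all 6 in ESC Ring1b peaks none could be, and for H3K27me3 only that of Dlx2 could. Over all protein-coding genes, most start sites in NSC peaks were also in an ESC peak of the same target. Of their start sites, 263 of the 389 in NSC Ring1b peaks and 245 of the 395 in NSC H3K27me3 peaks were in such an ESC peak. Measured in bases, Ring1b at the 3 pair windows covered 60000 bp in ESCs and 37200 bp in NSCs, and H3K27me3 covered 37400 bp and 35000 bp. The whole lists were also shorter in NSCs, with 7900200 bp in ESCs and 3599800 bp in NSCs for Ring1b. For H3K27me3 they held 4905000 bp and 3916000 bp. The H3K27me3 totals of the pair windows were close as deposited, at 30.3% of the bases in ESCs and 28.3% in NSCs. They were 38.2% and 31.4% once peaks within 3 kb of each other were merged. The pairs differed in direction, with 6000 bp more in NSCs at Dlx1 and Dlx2. At Dlx5 and Dlx6 H3K27me3 coverage fell by 2800 bp and at Dlx3 and Dlx4 it fell by 5600 bp. Between the genes of all 3 pairs H3K27me3 covered 23.6% in ESCs and 36.2% in NSCs, but 43.8% and 42.7% once peaks within 3 kb of each other were merged. Bases under all 6 lists came to 4800 bp at Dlx1 and Dlx2, including 2000 bp at the start of Dlx1 (71365601 to 71367600) and 2000 bp in the body of Dlx2 (71382001 to 71384000). At Dlx5 and Dlx6 they came to 7800 bp, 5800 bp around the start of Dlx6 and 2000 bp inside Dlx5, and at Dlx3 and Dlx4 to 0 bp.
Of the 6 ESC Ring1b peaks in the pair windows, those at Dlx1 with Dlx2 (1 of 1) and Dlx5 with Dlx6 (2 of 2) overlapped peaks of Cbx2, Ezh2 and H3K27me3, and 0 of 3 at Dlx3 with Dlx4 did. Among all ESC Ring1b peaks 15.9% overlapped all 3. In NSCs, 1 of 1 Ring1b peaks at Dlx1 with Dlx2 and 2 of 3 at Dlx5 with Dlx6 overlapped H3K27me3, compared with 27.7% of all NSC Ring1b peaks. Wide peaks meet other lists more easily, and the part of width in these counts was not tested.

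**Figure D4:**
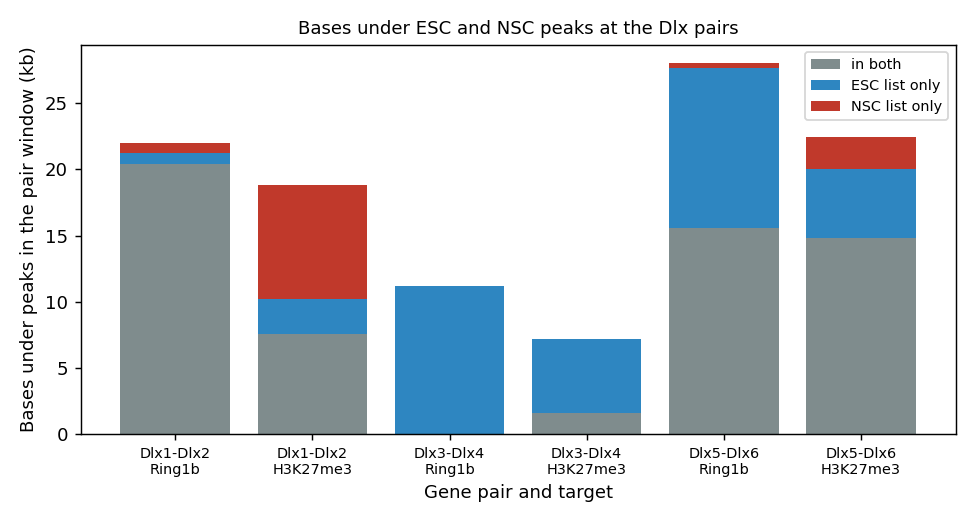
Bases under peaks (kb) in the window of each Dlx pair for Ring1b and H3K27me3, divided into bases under peaks in both cell types (grey), in the ESC list alone (blue) and in the NSC list alone (red). Ring1b at Dlx1 and Dlx2 is almost all shared (20400 bp), H3K27me3 there has 8600 bp in NSCs alone, and Ring1b at Dlx3 and Dlx4 is in ESCs alone (11200 bp).

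The nearest protein-coding neighbours were Metap1d, 2918 bp from Dlx1, and Gm1631 at the first pair, Itga3 and Tac4 at Dlx3 and Dlx4, and Shfm1 and Acn9 at Dlx5 and Dlx6. None of these 6 start sites was in a peak of any of the 6 lists, where from 1.15% to 7.03% of all protein-coding start sites were in a peak of a given list, so a count of 0 among 6 genes does not set these neighbours apart from other genes. Beyond the Dlx1 and Dlx2 window the nearest peak of any list was 949169 bp away, and beyond the Dlx5 and Dlx6 window 661315 bp. At Dlx3 and Dlx4 other peaks were closer, the nearest being an Ezh2 peak 89202 bp beyond the window. Noncoding neighbours inside the windows did have peaks. The start site of Dlx1as was in peaks of all lists but ESC Ezh2, and that of A730090H04Rik, which starts inside Dlx4 on the other strand, was in ESC Ring1b, Ezh2 and H3K27me3 peaks. Each pair is on the chromosome of a Hox cluster, 1.05 Mb from Hoxb for Dlx3 and Dlx4, 3.12 Mb from Hoxd for Dlx1 and Dlx2 and 45.3 Mb from Hoxa for Dlx5 and Dlx6.

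Base composition was next compared, since the rule that chose the genes did not use it. In the window of each pair, DNA under ESC Ring1b peaks held more CpGs than the rest. These peaks also hold all 6 Dlx start sites, and the part of DNA around start sites in this contrast was not tested. The density was 38.3 CpGs per kb under peaks and 12.3 outside at Dlx1 and Dlx2, 38.0 and 14.2 at Dlx3 and Dlx4, and 26.1 and 11.1 at Dlx5 and Dlx6. The DNA between the genes held 29.4 per kb at Dlx1 and Dlx2 and 16.6 at Dlx5 and Dlx6, which Ring1b covered, and 14.7 at Dlx3 and Dlx4, which it did not cover. In the 1 kb centred on each start site there were 31 CpGs at Dlx1 and from 55 (Dlx5) to 72 (Dlx2) at the other genes, with a median of 41 over 22338 start sites. The part of CpG density in the peak calls was not tested.

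**Figure D5:**
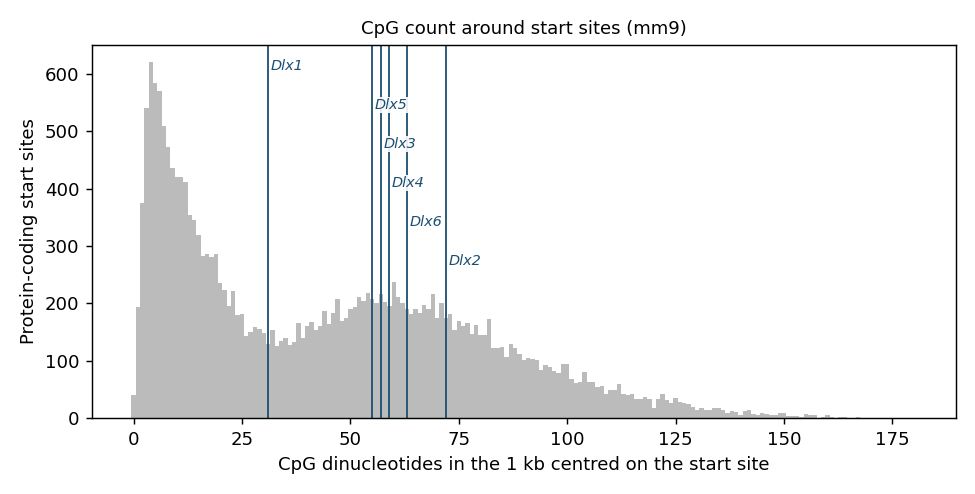
Number of protein-coding start sites (y axis) by the count of CpG dinucleotides in the 1 kb centred on the start site (x axis) in mm9, with the 6 Dlx genes as blue lines. Dlx1 stands at 31 CpGs, and the other 5 genes at 55 to 72, in the right-hand hump of the distribution.

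Homeodomain proteins such as the Dlx factors bind DNA with a TAAT core, so the words TAATTA and TAATTG were counted on both strands between the genes of each pair (TAATTA reads the same on both, and overlapping matches each count). There were 8 matches between Dlx1 and Dlx2, 9 between Dlx5 and Dlx6 and 10 between Dlx3 and Dlx4. Windows of the same length on the same chromosome held a median of 8, 9 and 11, and 57.5%, 50.5% and 62.2% of them held at least as many. At least 1 match was in 99.3%, 99.5% and 99.8% of the windows. The 200 bases with most matches are printed for a pair with Ring1b peaks between its genes and for the pair without, forward strand of mm9, with matches in capitals. The first (chr2:71373633-71373832) lay under Ring1b in both cell types and under H3K27me3 in NSCs alone, and the second (chr11:94998923-94999122) under no peak.
Between Dlx1 and Dlx2: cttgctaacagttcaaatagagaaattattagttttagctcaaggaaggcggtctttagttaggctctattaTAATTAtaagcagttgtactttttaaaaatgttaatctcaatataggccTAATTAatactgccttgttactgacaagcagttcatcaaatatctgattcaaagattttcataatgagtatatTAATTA
Between Dlx3 and Dlx4: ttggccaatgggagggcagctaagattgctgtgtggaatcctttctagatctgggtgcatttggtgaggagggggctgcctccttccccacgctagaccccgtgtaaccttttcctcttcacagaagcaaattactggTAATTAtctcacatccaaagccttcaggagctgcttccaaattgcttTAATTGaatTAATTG
Each printed stretch held 3 matches, and the stretch between Dlx5 and Dlx6, not printed, held 2. A match is a word in the sequence and not a measured binding site.

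Genes that act with the Dlx factors were examined from 2 lists. For the 12 genes reported from the forebrain list of 15, ESC peaks held 11 start sites for Ring1b, 10 for H3K27me3 and 9 each for Cbx2 and Ezh2. NSC peaks held 7 for Ring1b and 4 for H3K27me3. Of all protein-coding start sites, ESC peaks held 7.03% for Ring1b, 4.31% for H3K27me3, 1.15% for Cbx2 and 2.56% for Ezh2. NSC peaks held 1.74% for Ring1b and 1.77% for H3K27me3. All 7 forebrain start sites in NSC Ring1b peaks were also in ESC Ring1b peaks. The 7 were those of Nkx2-1, Lhx6, Lhx8, Isl1, Gsx2, Sp8 and Sp9, transcription factors of the developing forebrain. Among all protein-coding genes, 263 of the 389 start sites in NSC Ring1b peaks were also in ESC Ring1b peaks. In the other direction, 16.7% of those in ESC Ring1b peaks were also in NSC Ring1b peaks. The start sites of Gsx1, which acts upstream of Dlx genes, of Meis2, and of Gad2 and Slc32a1, which make and load the transmitter GABA, were in ESC and not in NSC Ring1b peaks. For H3K27me3 the start sites of the same 4 genes and of Lhx6 and Sp9 were in ESC peaks alone. Across all genes, 25.4% of start sites in ESC H3K27me3 peaks were also in NSC ones. NSC H3K27me3 peaks still covered 9.89% of the Gsx1 window (7.19% in ESCs), 7.82% at Lhx6 (14.7%) and 4.80% at Slc32a1 (22.4%). They covered 0% at Meis2, Gad2 and Sp9. Gad1, which also makes GABA, had no start site in a peak.
For the 11 genes reported from the list of 12 for jaw, limb, placenta, skin and bone, 5 start sites were in ESC Ring1b peaks and 3 in NSC Ring1b peaks. The numbers were 3 and 4 for H3K27me3 and 3 in ESCs for each of Cbx2 and Ezh2. Of all protein-coding start sites, 7.03% and 1.74% were in ESC and NSC Ring1b peaks and 4.31% and 1.77% in H3K27me3 peaks. For ESC Cbx2 and Ezh2 the shares were 1.15% and 2.56%. Msx1, Barx1 and Hand2 were in Ring1b peaks of both cell types, and Msx2 and Gbx2 of ESCs alone. Hand2 and Msx2 start sites were in H3K27me3 peaks of NSCs and not of ESCs, and that of Gbx2 the reverse. ESC H3K27me3 peaks did cover 44.7% of the Hand2 window and 3.82% of the Msx2 window. Among all protein-coding start sites, 245 of the 395 in NSC H3K27me3 peaks were also in ESC H3K27me3 peaks. Edn1, Ednra, Trp63, Gcm1, Runx2 and Sp7 had no start site in a peak of any list. Median window coverage by ESC Ring1b was 31.6% for the reported forebrain genes, 2.01% for those of the other list and 62.4% for Dlx genes. By NSC Ring1b it was 9.30%, 0% and 40.9%. Each window includes the whole gene body, so these percentages also depend on gene length, which was not accounted for.

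Set beside other homeobox clusters, the 6 Iroquois genes had 6 start sites in ESC Ring1b peaks and 1 in NSC Ring1b peaks, with 1 and 0 for H3K27me3. The 9 Hoxd genes had 8 and 6 for Ring1b and 6 and 8 for H3K27me3. The Dlx genes had 6 and 3 for Ring1b and 5 and 4 for H3K27me3. Among all protein-coding start sites the shares were 7.03% and 1.74% for Ring1b and 4.31% and 1.77% for H3K27me3. Median window coverage by ESC Ring1b was 38.9% for Iroquois, 62.4% for Dlx and 87.6% for Hoxd genes, and by NSC Ring1b it was 0%, 40.9% and 79.4%. Windows of neighbouring genes in a cluster can overlap and share bases, and window length follows gene length. Neither was accounted for, and no test of these differences was made. Single genes whose coverage was most like the mean of the 6 Dlx genes, by the mean absolute difference over the 6 lists, were Zic4 (2.79 percentage points), Barhl2 (3.83), Nkx6-1 (4.20), Foxb1 (4.57) and Pitx1 (5.06). That mean mixes unlike genes. For ESC Ring1b it was 54.2%, where Dlx3 had 14.3%, Dlx4 had 29.4% and the other Dlx genes had 61.4% or more.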

How the data were processed

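Ring1b, Cbx2, Ezh2 and H3K27me3 ChIP-seq peaks of ESCs and Ring1b and H3K27me3 peaks of NSCs were used as deposited, 6 lists in mm9. The authors aligned paired-end reads of 50 bp (Bowtie in the study's methods, BWA in the submitters' processing notes), compared ChIP with input in 1 kb windows every 200 bp using a negative binomial distribution whose size parameter was chosen by inspecting the calls, and joined enriched windows lying close together. An added EGS cross-link for Ring1b is given in the study's methods alone. The 4 inputs were not analysed here.

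Start sites are the 5′ ends of GENCODE gene records on the NCBIM37 (mm9) sequence. Python 3.11.15 (numpy 2.4.6) was used to find overlaps of at least 1 bp and covered bases, and the code was tested on simulated data. For Gsx2 and Runx2 the first of 2 annotated genes of that name was used. Of the forebrain list 3 genes, and of the jaw list 1, are not reported here for a reason other than their values, so the counts and medians cover the other genes and not the whole lists. The genes were the 6 named members, the nearest coding genes, noncoding genes in the windows, the lists, and the 5 genes closest in coverage. Members and lists were chosen with earlier results of these data known. Peak shapes at the pairs were seen before the base composition and motif counts were chosen. Alternatives were other windows, any transcript start, a peak within 1 kb of the start site, leaving out peaks under 2 kb, and merging those less than 3 kb apart.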

Additional observations from a re-analysis of the deposited data

How the results depend on the processing

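The numbers of start sites in peaks, and of those in peaks of both cell types, moved by less than 1.5 times under each alternative run. Start sites in ESC H3K27me3 peaks went from 5 to 6 with any transcript start or a peak within 1 kb. The count for NSC Ring1b, and that for Ring1b in both cell types, went from 3 to 4 with a peak within 1 kb. The count for NSC H3K27me3, and that for H3K27me3 in both cell types, went from 4 to 5 with a peak within 1 kb and to 3 without peaks under 2 kb. Coverage has no replicate spread to judge a shift by. Summed over the 3 pairs, coverage of the windows depends by construction on their size. With 5 kb on either side it was 59.7% for ESC Ring1b, 43.0% for ESC Cbx2, 37.0% for ESC Ezh2, 37.9% for ESC H3K27me3, 37.7% for NSC Ring1b and 35.7% for NSC H3K27me3, and with 20 kb it was 32.7%, 23.6%, 19.4%, 20.4%, 20.3% and 19.1%. Measured from start site to start site, coverage within the pairs was 67.6% for ESC Ring1b, 45.6% for ESC Ezh2, 42.1% for ESC H3K27me3 and 45.0% for NSC H3K27me3, since this adds the gene bodies. ESC H3K27me3 was most affected by peak calls. Its window coverage of 30.3% became 26.1% with peaks at least 2 kb wide and 38.2% with merged peaks, and its coverage between the genes of 23.6% became 14.2% and 43.8%. The NSC H3K27me3 window coverage of 28.3% became 25.7% and 31.4%. NSC H3K27me3 between the genes went from 36.2% to 42.7% with merged peaks, so that the order of the cell types turned.
No paired analysis was possible because each cell type and target has 1 library. Depth is unknown, and the lists cannot show binding that did not pass the authors' threshold.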
